A study of Mus musculus with 4 samples.

Results

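The 34 genes described here are vascular and lymphatic endothelial genes, chosen by gene symbol, and all 34 were among the 25239 symbols of the count table. RNA was sequenced from hindlimb bud cells of FVB mouse embryos at embryonic day 11.5. All embryos were labelled wild-type and carried a reporter transgene at H11, made of the hsp68 minimal promoter and the human version of ZRS, a limb enhancer, with the 404G>A change, which drives mCherry, a fluorescent protein. The anterior group held 2 libraries of cells dissected from the anterior domain and sorted as mCherry-positive, and the central group held 2 libraries of cells dissected from the central domain and sorted as mCherry-negative. Position in the bud and the mCherry gate therefore changed together and cannot be told apart. The labels do not say how many embryos entered a library, so p-values measure the spread between these libraries only, which may be technical.

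Endothelial cells line blood and lymphatic vessels, and a vessel plexus already runs through the limb bud mesenchyme at this stage. VEGF from surrounding tissue acts on receptor tyrosine kinases of the endothelium, angiopoietins act on the TIE receptors, and ETS and SOXF transcription factors drive the endothelial programme. Cadherin 5, claudin 5 and related proteins join endothelial cells to each other. Several of the genes are not confined to endothelium: CD34 and PECAM1 are found on blood cells, von Willebrand factor in megakaryocytes, and LYVE1 on embryonic macrophages as well as lymphatic vessels.

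Library totals ranged from 30080925 to 33257383 counts. Values are given as CPM, that is, each count divided by its library's total and TMM factor (edgeR's normalization) and given per 1 M, and 3 counts corresponded to 0.090 to 0.102 CPM. The endothelial genes were scarce and together took 0.00987% and 0.0103% of the counts of the anterior libraries and 0.0213% and 0.0219% of the central ones. In each library 72.8% to 75.7% of the counts between 1 and 10 were even numbers, so low counts may not be independent and intervals from them may be too narrow. Prrx1, a homeobox gene of limb mesenchyme, measured 717 and 676 CPM in anterior and 681 and 641 CPM in central libraries (edgeR adjusted p = 0.473). Other limb mesenchyme genes differed between the populations, as given below.

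Most of the endothelial genes were lower in the anterior population. Of 34 genes, 19 were called lower at an adjusted p-value under 0.05 (edgeR's quasi-likelihood test, Benjamini-Hochberg over 14610 tested genes), against 12.3% of all tested genes, and 2 were called higher, against 10.7%. In either direction 21 were called, against 22.9% of all tested genes. A further 12 were not called and 1, Esm1, had too few counts to be tested. Among the 19 lower genes the fold was at least 4 in 11 and between 2 and 4 in 8. The median log2 fold change of the 33 tested genes was -1.5, beside -0.01 over all tested genes. That median includes 8 genes that passed the filter on low counts through 1 population alone, 7 of them through the central one, of which 5 were called lower. In these bulk libraries, fewer endothelial cells and less of each RNA per endothelial cell cannot be told apart.

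Counted by library without a test, both anterior values lay below both central values for 27 of the 34 genes (32.6% of all tested genes), above them for 3 (30.8% of all tested genes), and overlapped for 4. Summed over the 34 genes, the level was 98.5 and 105.3 CPM in the anterior libraries and 209.8 and 217.3 CPM in the central ones. Fli1 alone made up 32.9% to 39.8% of these sums. Without it the sums were 61.3 and 70.6 CPM in anterior and 126.3 and 131.5 CPM in central libraries. The 19 genes called lower summed to 55.02 and 57.1 CPM in anterior and 155.5 and 172.04 CPM in central libraries. The remaining 15 genes together were at 43.4 and 48.2 CPM in anterior and 54.2 and 45.3 CPM in central libraries. This split followed the calls made on these same values, so the contrast of the sums was fixed in advance. The 15 were not level gene by gene. Of the 12 not called, both anterior values lay below both central ones in 7 and above them in 1. S1pr1 and Lyve1 were called higher.

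**Figure D1:**
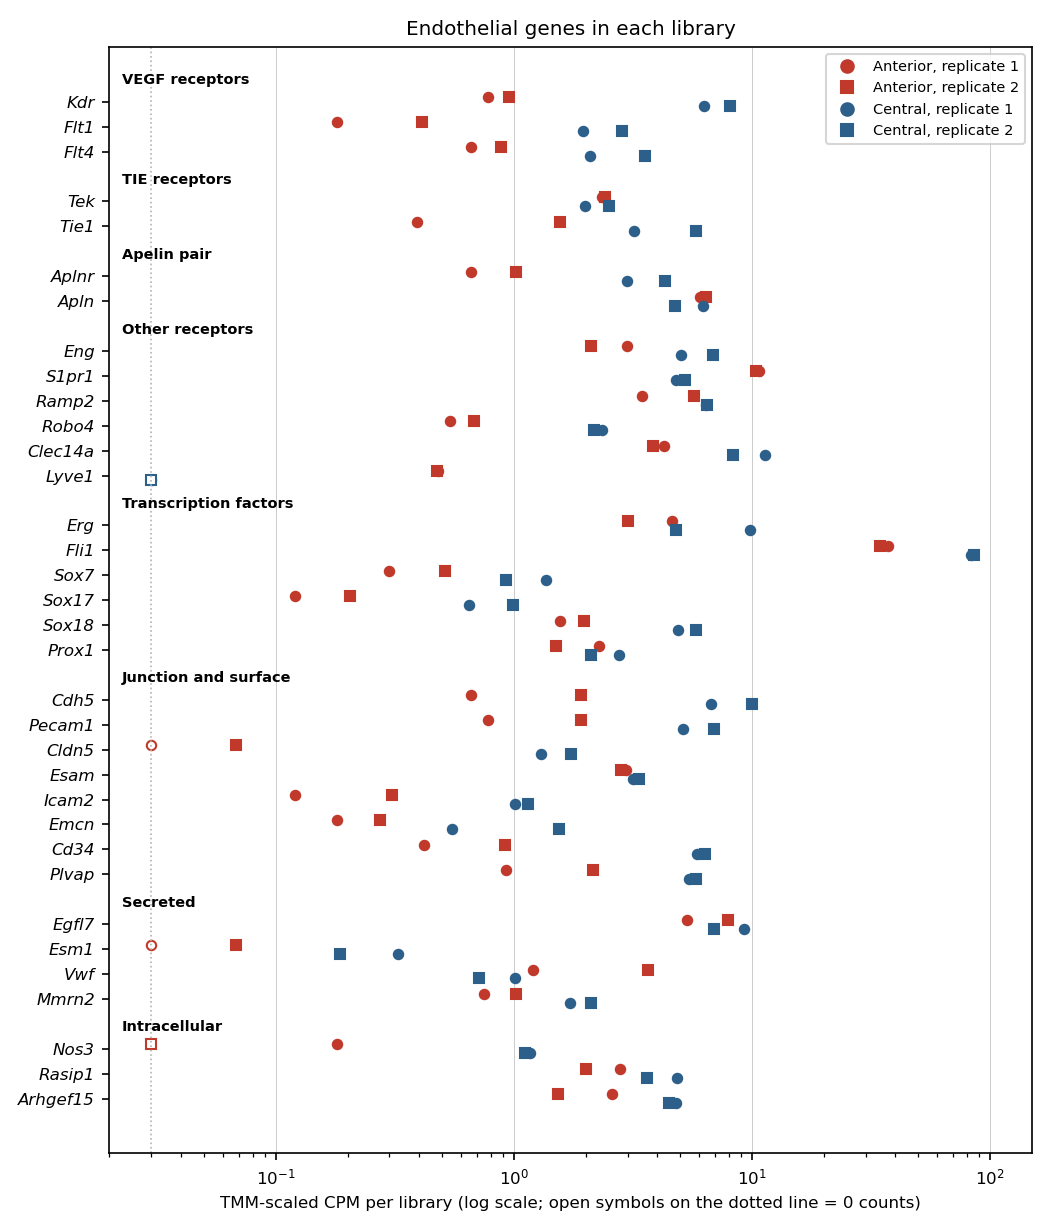
Level of each of the 34 endothelial genes in the 2 anterior (red) and 2 central (blue) libraries, in CPM on a log scale, grouped by role. The red symbols lie left of the blue ones for 27 genes, right of them for S1pr1, Vwf and Lyve1, and among them for Tek, Apln, Prox1 and Egfl7.

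All 3 VEGF receptor genes were lower in anterior cells. Kdr, encoding VEGFR2, the main signalling receptor for VEGF-A on endothelium, measured 0.78 and 0.95 CPM in the anterior libraries and 6.3 and 8.09 CPM in the central ones. The gene lies on chromosome 5, 75932827 to 75978458 (GENCODE M21, GRCm38). The groups did not overlap, and the fold was 8.29 (log2 fold change -3.05 ± 0.31 SE, adjusted p = 0.00021, edgeR). Flt1, encoding VEGFR1, a high-affinity VEGF receptor that also acts as a decoy, measured 0.18 and 0.41 CPM against 1.95 and 2.84 CPM, a fold of 8.15 (log2 fold change -3.03 ± 0.55 SE, adjusted p = 0.00506). Its anterior level rested on 6 and 12 counts, and leaving out anterior replicate 2 moved its log2 fold change to -3.7. Flt4, encoding VEGFR3, the receptor for VEGF-C and VEGF-D, measured 0.66 and 0.89 CPM against 2.08 and 3.55 CPM, a smaller difference of 3.64-fold (log2 fold change -1.87 ± 0.44 SE, adjusted p = 0.0172). The groups did not overlap, but the call was lost without anterior replicate 1 (adjusted p = 0.0543) and without central replicate 2 (adjusted p = 0.108).

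Of the 2 TIE receptor genes, 1 was called lower. Tek, encoding TIE2, the angiopoietin receptor, measured 2.34 and 2.42 CPM in anterior and 1.98 and 2.5 CPM in central libraries. The anterior values lay between the central ones, and Tek was not called (log2 fold change 0.09 ± 0.33 SE, adjusted p = 0.885). Its small difference changed sign, to -0.07, without central replicate 1. Tie1, the partner receptor that binds no angiopoietin strongly by itself, measured 0.39 and 1.57 CPM against 3.18 and 5.81 CPM and was lower in anterior cells (log2 fold change -2.21 ± 0.58 SE, adjusted p = 0.0259). Both groups spread widely for Tie1, and its log2 fold change ran from -1.51 without anterior replicate 1 to -3.51 without anterior replicate 2.

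Of the apelin pair, the receptor gene was called lower and the ligand gene was not called. Aplnr, a G protein-coupled receptor of venous and sprouting endothelium, measured 0.66 and 1.02 CPM in anterior and 2.99 and 4.33 CPM in central libraries, 4.35-fold lower (log2 fold change -2.12 ± 0.40 SE, adjusted p = 0.0062). Apln, its peptide ligand made by tip cells, measured 6.06 and 6.41 CPM against 6.23 and 4.76 CPM. The Apln groups overlapped (log2 fold change 0.18 ± 0.23 SE, adjusted p = 0.628).

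Of the 6 other receptor genes, 3 were lower and 2 higher. Clec14a, a C-type lectin of endothelium, measured 4.26 and 3.85 CPM against 11.3 and 8.31 CPM (log2 fold change -1.27 ± 0.23 SE, adjusted p = 0.00509). Eng, encoding endoglin, a TGF-beta co-receptor, measured 3.0 and 2.11 CPM against 5.03 and 6.83 CPM (log2 fold change -1.21 ± 0.30 SE, adjusted p = 0.0196). Robo4, an endothelial roundabout receptor that stabilises vessels, measured 0.54 and 0.68 CPM against 2.34 and 2.16 CPM (log2 fold change -1.88 ± 0.43 SE, adjusted p = 0.0146). Clec14a was called in each fit that left out 1 library. Eng was not called without anterior replicate 2 (adjusted p = 0.0853) or central replicate 2 (adjusted p = 0.0621), nor Robo4 without anterior replicate 1 (adjusted p = 0.0604). Ramp2, the partner of the adrenomedullin receptor, measured 3.45 and 5.69 CPM against 6.4 and 6.49 CPM and was not called (log2 fold change -0.50 ± 0.28 SE, adjusted p = 0.241). Exons of Vps25 cover 33.4% of the exon length of Ramp2, so its count is uncertain.

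S1pr1 and Lyve1 went the other way. S1pr1, encoding a sphingosine-1-phosphate receptor that limits sprouting and is also found outside endothelium, measured 10.7 and 10.4 CPM in anterior and 4.81 and 5.25 CPM in central libraries. The replicates were close together in both groups, and the gene was 2.09-fold higher in anterior cells (log2 fold change 1.07 ± 0.19 SE, adjusted p = 0.00469). Lyve1, encoding a hyaluronan receptor of lymphatic endothelium and macrophages, had anterior counts of 16 and 14 and central counts of 0 and 0. Against a floor of 3 counts per central library, anterior cells were at least 5.03-fold higher (adjusted p = 0.0137). It passed the filter on low counts only through the anterior libraries. The call was lost without anterior replicate 2, central replicate 1 or central replicate 2 (adjusted p = 0.0531, 0.0549 and 0.0529). Without anterior replicate 1, or with halved counts, Lyve1 fell below the filter and was not tested.

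**Figure D2:**
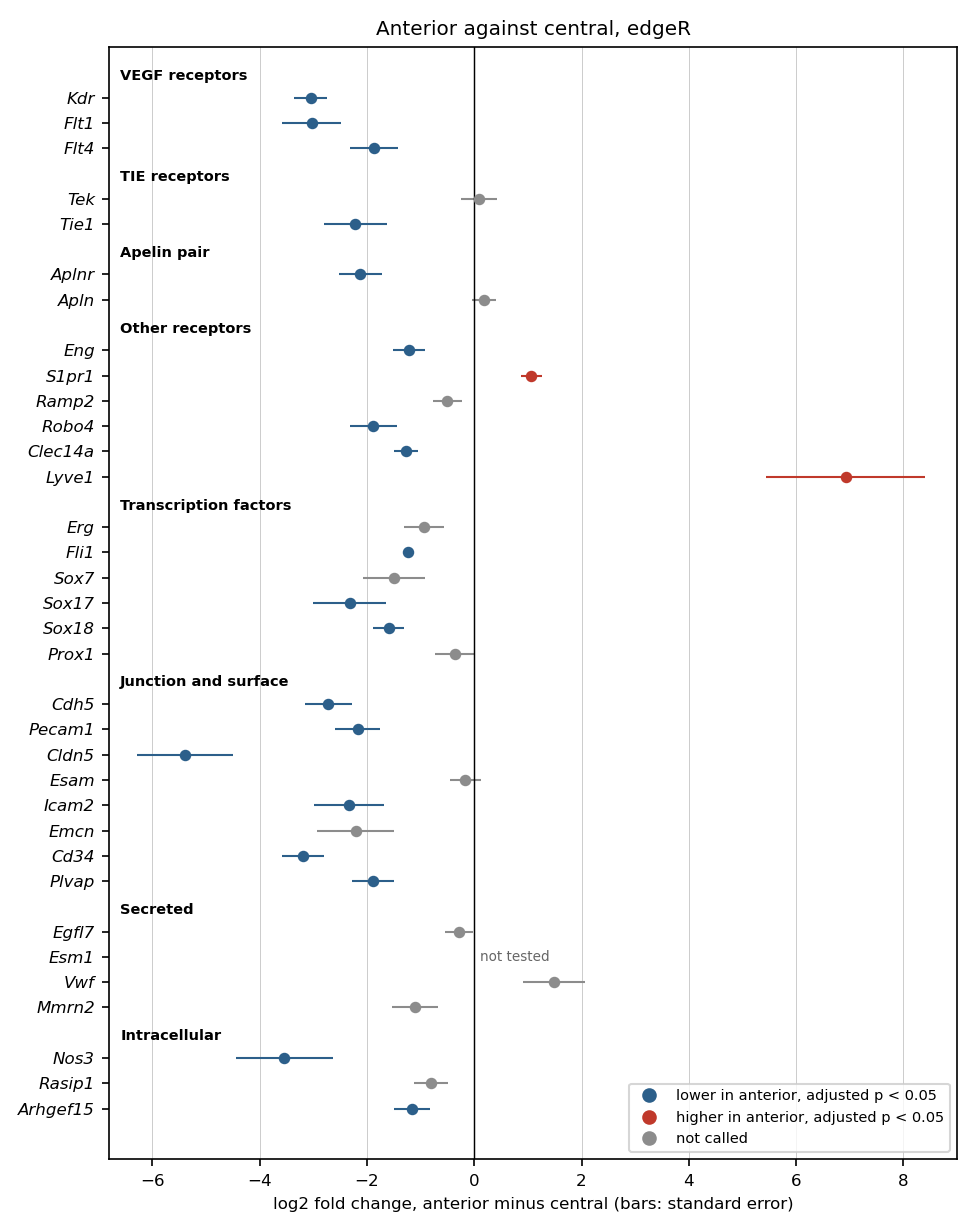
Log2 fold change of each endothelial gene, anterior minus central, from edgeR, with its standard error, grouped by role. Blue genes were called lower (19), red ones higher (2), grey ones were not called (12). The point for Lyve1 is a fitted value against 0 counts in both central libraries, and its bar does not bound the fold.

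The transcription factors held the most abundant gene of the set. Fli1, an ETS factor of endothelium and blood that mesenchyme also expresses, measured 37.2 and 34.6 CPM in anterior and 83.4 and 85.8 CPM in central libraries, 2.35-fold lower (log2 fold change -1.24 ± 0.08 SE, adjusted p = 1.96e-05). Fli1 lies on chromosome 9, 32422204 to 32542861 (GENCODE M21, GRCm38). Its standard error was the smallest of the 33 tested genes, and the difference was -1.18 to -1.28 on the log2 scale when any 1 library was left out. Erg, the related ETS factor that maintains endothelial identity, measured 4.62 and 3.0 CPM against 9.84 and 4.79 CPM and was not called (log2 fold change -0.94 ± 0.37 SE, adjusted p = 0.103). Central replicate 1 lay well above central replicate 2 for Erg, and the groups did not overlap. Erg was called without central replicate 2 (adjusted p = 0.00177), without anterior replicate 1 (adjusted p = 0.043) and with no filter on counts (adjusted p = 0.0283).

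Of the 3 SOXF factors, which act together in vessel formation, Sox18 was the most abundant, at 1.56 and 1.98 CPM against 4.87 and 5.81 CPM, and was lower in anterior cells (log2 fold change -1.6 ± 0.30 SE, adjusted p = 0.00553). Sox17, the arterial member, had 4 and 6 counts in anterior and 20 and 32 in central libraries. Exons of Gm37587 on the opposite strand cover 16.8% of its exon length, so its count is uncertain, and at these counts its fold is not firm. It was called lower (log2 fold change -2.32 ± 0.69 SE, adjusted p = 0.0406), but not by the DESeq2 Wald test (adjusted p = 0.0927), limma-voom (0.0574) or edgeR without a filter (0.0519), nor when any 1 library was left out (adjusted p from 0.0855 to 0.246). Sox7 measured 0.30 and 0.51 CPM against 1.36 and 0.93 CPM and was not called (log2 fold change -1.5 ± 0.58 SE, adjusted p = 0.0991), although its groups did not overlap. Prox1, the master regulator of lymphatic fate, measured 2.28 and 1.5 CPM against 2.76 and 2.1 CPM, with overlapping groups (log2 fold change -0.36 ± 0.38 SE, adjusted p = 0.55).

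Genes for junction and surface proteins held some of the largest falls, with 6 of 8 called lower. Cdh5, encoding VE-cadherin, the adhesion molecule of endothelial junctions, measured 0.66 and 1.91 CPM in anterior and 6.72 and 10.01 CPM in central libraries, 6.58-fold lower (log2 fold change -2.72 ± 0.45 SE, adjusted p = 0.00306). The gene lies on chromosome 8, 104101625 to 104144511 (GENCODE M21, GRCm38). The anterior replicates differed from each other, and the log2 fold change was -2.13 without anterior replicate 1 and -3.65 without anterior replicate 2. Pecam1, encoding the adhesion molecule CD31, measured 0.78 and 1.91 CPM against 5.13 and 6.92 CPM (log2 fold change -2.17 ± 0.42 SE, adjusted p = 0.0065; -2.94 without anterior replicate 2). Cd34, a sialomucin of capillaries and blood progenitors, measured 0.42 and 0.92 CPM against 5.88 and 6.33 CPM, 9.17-fold lower (log2 fold change -3.2 ± 0.39 SE, adjusted p = 0.000675; -3.84 without anterior replicate 2). Plvap, which forms the diaphragms of endothelial fenestrae and caveolae, measured 0.93 and 2.15 CPM against 5.46 and 5.84 CPM (log2 fold change -1.88 ± 0.39 SE, adjusted p = 0.00952; -2.59 without anterior replicate 2).

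Cldn5, encoding the tight junction protein claudin 5, had few counts in anterior cells, with 0 and 2 counts against 40 and 56 in central libraries. The ratio of central to anterior was 47.6 (95% exact binomial interval for counting error 12.8 to 399; edgeR adjusted p = 0.00328). Without anterior replicate 1 the fitted log2 fold change was -4.39, and without anterior replicate 2 the remaining anterior library held 0 counts. Icam2, an endothelial adhesion molecule, had 4 and 9 counts against 31 and 37. It was called lower (log2 fold change -2.33 ± 0.65 SE, adjusted p = 0.0334), but not by the DESeq2 Wald test (adjusted p = 0.0519) or when any 1 library was left out (adjusted p from 0.0556 to 0.193). Its log2 fold change was -3.12 without anterior replicate 2. Emcn, a venous and capillary sialomucin, measured 0.18 and 0.27 CPM against 0.55 and 1.54 CPM and was not called (log2 fold change -2.21 ± 0.72 SE, adjusted p = 0.0574). It was called without a filter (adjusted p = 0.0363) and without central replicate 1 (adjusted p = 0.0294). Esam, a junction protein of endothelium and platelets, measured 2.97 and 2.83 CPM against 3.15 and 3.37 CPM, a difference of -0.17 ± 0.29 (SE) on the log2 scale (adjusted p = 0.727).

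Of the 4 genes for secreted proteins, 3 were tested and 0 were called by edgeR, DESeq2 or limma-voom, although 2 had an unadjusted p under 0.05 in edgeR. Egfl7, an extracellular matrix protein that guides vessel tube formation, measured 5.34 and 7.94 CPM against 9.25 and 6.92 CPM, with overlapping groups (log2 fold change -0.29 ± 0.26 SE, adjusted p = 0.475). Agpat2, Gm20532 and the microRNA genes Mir126a and Mir126b cover 11.2% of the exon length of Egfl7, so its count is uncertain. Mmrn2, a matrix ligand of CLEC14A, measured 0.75 and 1.02 CPM against 1.72 and 2.1 CPM (log2 fold change -1.11 ± 0.43 SE, adjusted p = 0.102). Vwf, encoding von Willebrand factor, was at 1.2 and 3.65 CPM in anterior and 1.01 and 0.71 CPM in central libraries, and the first anterior value lay close to the central ones (log2 fold change 1.49 ± 0.57 SE, adjusted p = 0.0992). Vwf was called higher without anterior replicate 1 (adjusted p = 0.0103) and without a filter (0.0301). Esm1, a proteoglycan of tip cells, had 0 and 2 counts against 10 and 6, a central to anterior ratio of 7.94 (95% exact binomial interval 1.87 to 71.2, counting error only).

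Among the intracellular proteins, Nos3, encoding endothelial nitric oxide synthase, had 6 and 0 counts in anterior and 36 and 36 in central libraries and was called lower (log2 fold change -3.54 ± 0.90 SE, adjusted p = 0.0229). The call was lost without anterior replicate 2 (log2 fold change -2.63, adjusted p = 0.0762), and without anterior replicate 1 the remaining anterior library held 0 counts. Exons of Atg9b and Gm15587 on the opposite strand cover 32.3% of the exon length of Nos3, so its count is uncertain without knowledge of the strand setting. Arhgef15, an endothelial guanine nucleotide exchange factor, measured 2.58 and 1.53 CPM against 4.77 and 4.48 CPM (log2 fold change -1.16 ± 0.33 SE, adjusted p = 0.0352). Its call was lost without anterior replicate 2 (adjusted p = 0.168) and without central replicate 1 (0.0626). Rasip1, a Ras-interacting protein needed for vessel lumens, measured 2.79 and 2.01 CPM against 4.84 and 3.61 CPM and was not called (log2 fold change -0.81 ± 0.32 SE, adjusted p = 0.104). Other genes cover 42.9% of its exon length.

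Levels can be compared between genes only after division by exon length. In CPM per kilobase of exon, Fli1 led in both populations, at a mean of 10.3 in anterior and 24.3 in central cells. In central cells Sox18 (3.3), Plvap (2.84), Egfl7 (2.26) and Clec14a (2.15) came next. In anterior cells the next genes were S1pr1 (3.46), Apln (1.98), Egfl7 (1.85) and Ramp2 (1.38), none of which was called lower. The defining junction gene Cdh5 stood at 1.99 in central and 0.306 in anterior cells, and Kdr at 0.797 and 0.096. Neighbouring genes in these orders often lay within the spread of the replicates, as for Clec14a and Egfl7 in central cells.

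**Figure D3:**
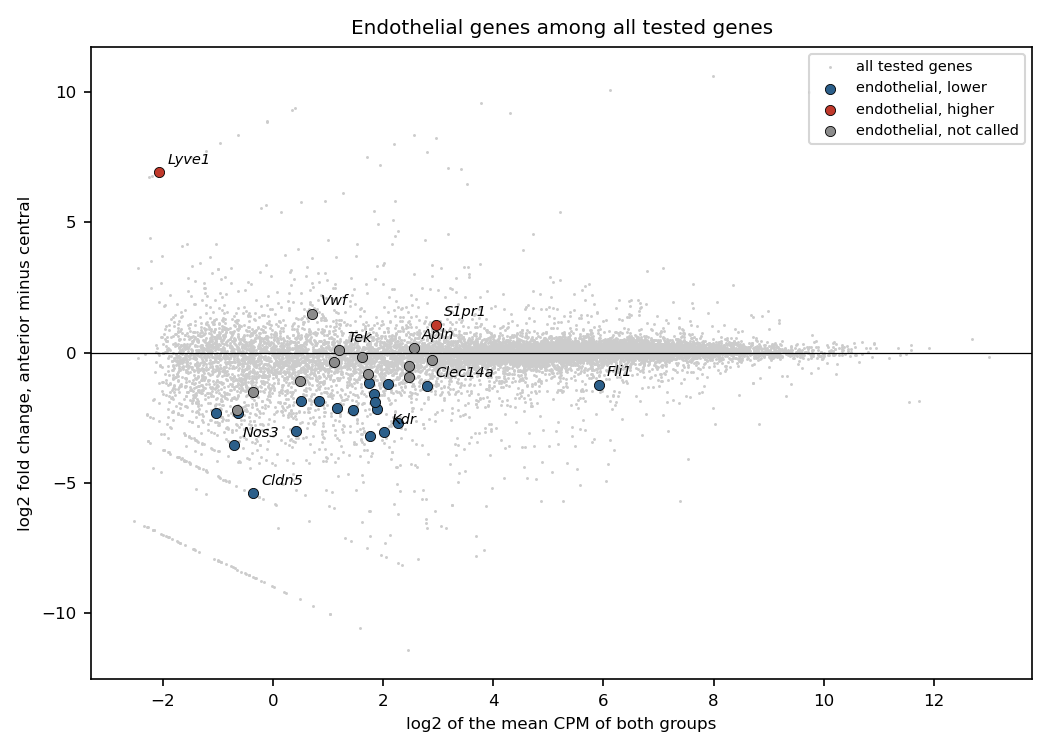
Log2 fold change, anterior minus central, against the log2 mean CPM of both groups for the 14610 tested genes (light grey) and the 33 tested endothelial genes (large symbols). The median central level of all tested genes is 25.4 CPM, which among the endothelial genes Fli1 alone exceeds in central cells, and the 19 called lower lie between -1.16 and -5.39 on the log2 scale, the lowest being the fitted value of Cldn5.

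Start-site sequences of 300 bases (250 before and 50 after the start, RefSeq, GRCm38.p6) were given for 17 of the 34 genes. They were searched on both strands for 2 ETS-type motifs (CAGGAAG in the first place, then CCGGAAG), for the SOX-type motif ACAATG and for the GATA-type motif AGATAA, with a gene counted once if any of its listed starts held a match. The first ETS-type motif occurred in 7 of the 17 genes (41.2%) and in 14.8% of all 27025 genes with such sequences, and the other in 0 of 17 and 9.93% of all. The SOX-type motif occurred in 1 of 17 (14.3% of all) and the GATA-type motif in 2 of 17 (12.7% of all). Of the 7 genes with the first motif, Cd34 and Robo4 were called lower in anterior cells, and Apln, Egfl7, Emcn, Erg and Rasip1 were not called. A match is a description of letters and not a binding site. Sequences are shown for 3 genes that were lower in anterior cells, Cd34 and Robo4 with a match and Kdr without one, and for Apln, which holds a match and was not called. Each is written 5′ to 3′ on the gene's strand, and capitals mark CAGGAAG or its reverse complement. Cd34 is at chr1:194938571-194938870, plus strand, Robo4 at chr9:37401722-37402021, plus strand, Kdr at chr5:75978406-75978705, minus strand, and Apln at chrX:48034804-48035103, minus strand.
Cd34: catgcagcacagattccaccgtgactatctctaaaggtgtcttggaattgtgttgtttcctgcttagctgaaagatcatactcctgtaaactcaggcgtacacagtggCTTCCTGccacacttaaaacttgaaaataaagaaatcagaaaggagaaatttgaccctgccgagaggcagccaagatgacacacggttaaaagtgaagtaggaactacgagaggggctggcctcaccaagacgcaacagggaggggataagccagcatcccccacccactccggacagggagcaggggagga
Robo4: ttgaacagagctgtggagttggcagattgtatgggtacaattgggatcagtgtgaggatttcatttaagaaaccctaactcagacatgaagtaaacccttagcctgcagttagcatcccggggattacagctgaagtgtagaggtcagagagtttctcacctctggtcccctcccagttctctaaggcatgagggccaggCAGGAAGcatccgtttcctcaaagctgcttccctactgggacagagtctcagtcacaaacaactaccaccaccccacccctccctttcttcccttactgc
Kdr: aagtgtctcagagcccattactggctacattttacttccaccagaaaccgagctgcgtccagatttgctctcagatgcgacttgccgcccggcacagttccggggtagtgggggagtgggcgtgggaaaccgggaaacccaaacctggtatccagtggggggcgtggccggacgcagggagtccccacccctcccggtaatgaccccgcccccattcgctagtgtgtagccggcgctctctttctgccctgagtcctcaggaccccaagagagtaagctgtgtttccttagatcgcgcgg
Apln: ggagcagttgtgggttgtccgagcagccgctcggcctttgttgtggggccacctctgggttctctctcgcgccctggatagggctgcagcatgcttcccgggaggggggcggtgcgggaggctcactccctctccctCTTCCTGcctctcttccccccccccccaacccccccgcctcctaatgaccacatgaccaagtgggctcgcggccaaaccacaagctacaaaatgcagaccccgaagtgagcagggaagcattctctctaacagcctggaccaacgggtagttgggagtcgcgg

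Ligands of these receptors were compared from a fixed list, in which 3 of 11 genes were called higher in anterior cells and 3 lower, with 4 not called and Angpt4 not tested. Vegfd, a ligand of VEGFR3, measured 16.6 and 18.7 CPM in anterior and 2.82 and 2.1 CPM in central libraries, 7.17-fold higher (log2 fold change 2.84 ± 0.21 SE, adjusted p = 3.42e-05). Vegfc, the other VEGFR3 ligand, measured 11.4 and 13.2 CPM against 8.28 and 7.2 CPM and was also higher (log2 fold change 0.67 ± 0.18 SE, adjusted p = 0.0275). Flt4, their receptor, was called lower in the population in which both ligand genes were called higher. Vegfa, the main ligand of VEGFR2, measured 78.1 and 70.3 CPM against 90.3 and 94.96 CPM, a small fall in anterior cells (log2 fold change -0.32 ± 0.08 SE, adjusted p = 0.022). The VEGFR1 ligands Pgf and Vegfb had log2 fold changes of -0.96 (called lower, adjusted p = 0.0176) and 0.01 (adjusted p = 0.938). Of these, Vegfd was called in each fit that left out 1 library. Vegfc was not called without anterior replicate 2 (adjusted p = 0.155) or central replicate 2 (0.0698), Vegfa without anterior replicate 2 (0.208) or Pgf without anterior replicate 1 (0.0805).

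Angpt1, the activating ligand of TIE2, measured 18.7 and 10.6 CPM in anterior and 7.66 and 6.83 CPM in central libraries and was called higher (log2 fold change 1.02 ± 0.26 SE, adjusted p = 0.0223), but not without anterior replicate 1 (adjusted p = 0.162). Angpt2, its antagonist, measured 1.98 and 1.94 CPM against 1.43 and 1.45 CPM (log2 fold change 0.44 ± 0.38 SE, adjusted p = 0.45). Apela, another ligand of the apelin receptor, measured 2.1 and 1.53 CPM against 3.12 and 2.41 CPM and did not pass the test (adjusted p = 0.27), and neither did the plexin ligand gene Sema3e (log2 fold change -1.78, adjusted p = 0.0914). Cxcl12, the chemokine ligand of CXCR4, measured 20.2 and 21.4 CPM in anterior cells, and its central values were 326 and 375 CPM. Of 12 co-receptor and junction genes outside the set, 3 were called higher (1 without anterior replicate 2), 3 lower and 6 were not called. The receptor gene of CXCL12, Cxcr4, found on endothelium, blood and migrating muscle precursors, measured 0.18 and 0.68 CPM against 8.7 and 9.21 CPM (log2 fold change -4.4 ± 0.46 SE, adjusted p = 0.000248; -3.7 without anterior replicate 1 and -5.6 without anterior replicate 2). Plxnd1, a semaphorin receptor of endothelium, measured 14.2 and 13.8 CPM against 25.1 and 35.5 CPM (log2 fold change -1.11 ± 0.17 SE, adjusted p = 0.0019). The 3 higher genes were Nrp1, Nrp2 and Jam2. Nrp1, encoding the VEGF co-receptor neuropilin 1, which is also found outside endothelium, measured 158 and 170.5 CPM in anterior and 77.02 and 76.3 CPM in central libraries (log2 fold change 1.1 ± 0.07 SE, adjusted p = 1.50e-05). Jam2, encoding a junctional adhesion molecule, measured 5.04 and 7.16 CPM against 3.47 and 1.88 CPM (log2 fold change 1.19 ± 0.35 SE, adjusted p = 0.0388), and its call was lost without anterior replicate 2 (adjusted p = 0.173) and without central replicate 2 (0.0801).

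Other vascular lists held calls in both directions. Of 21 other endothelial genes, 6 were called lower, 3 higher, 8 were not called and 4 were not tested. The 6 became 3 with limma-voom, with a mean count of at least 50 and without central replicate 2. The lower ones included the endothelial lectin receptor gene Cd93 (0.72 and 0.95 CPM in anterior and 3.05 and 4.7 CPM in central libraries; log2 fold change -2.21 ± 0.39 SE, adjusted p = 0.00452), the adhesion molecule gene Mcam (2.37 and 1.81 against 12.99 and 11.4 CPM; log2 fold change -2.54 ± 0.23 SE, adjusted p = 0.000118) and the exchange factor gene Rasgrp3 (0.30 and 0.48 against 2.18 and 2.41 CPM; log2 fold change -2.56 ± 0.48 SE, adjusted p = 0.00568). The 3 higher ones were Tspan18, Stab1 and Dysf (log2 fold changes 1.42, 1.3 and 0.42, edgeR adjusted p = 3.79e-05, 0.0151 and 0.0156). Tspan18 measured 82.7 and 75.9 CPM in anterior and 32.3 and 26.9 CPM in central libraries. Summed over the 21 genes, the level was 177.6 and 177.7 CPM in anterior and 126.5 and 139.8 CPM in central libraries. Of 11 arterial genes, 3 were called higher and 2 lower (4 with halved counts). Those higher included Hey1, a Notch target (3.78-fold, adjusted p = 5.23e-06), and the netrin receptor gene Unc5b (2.83-fold, adjusted p = 2.13e-06), and those lower included Notch1 (2.7-fold, adjusted p = 0.000116). These 3 were at 23.2 CPM or more in every library, and none of them is restricted to endothelium. Both anterior values lay below both central ones for 7 of the 11 arterial genes (32.6% of all tested genes) and above them for 3 (30.8%). The median log2 fold change was -1.34. Bmx, Dll4, Gja4 and Gja5, with at most 50 counts per library, were at -2.01, -1.45, -2.87 and -1.43 and were not called (edgeR adjusted p from 0.0592 to 0.0992). Hey2 and Notch4, also not called, were at -0.21 and -0.12. Of 4 venous genes, which include Aplnr, 2 were called lower, 1 higher and 1, Ephb4, was not called. Nr2f2, a venous identity factor that mesenchyme also expresses, was at 43.95 and 43.7 CPM in anterior and 159.7 and 159 CPM in central libraries (log2 fold change -1.86 ± 0.07 SE, adjusted p = 1.14e-06). Nrp2, encoding neuropilin 2, a co-receptor for VEGF-C and semaphorins, measured 562 and 549 CPM against 471 and 471 CPM and was called higher (log2 fold change 0.24 ± 0.06 SE, adjusted p = 0.0214), but not without anterior replicate 1 (adjusted p = 0.167) or anterior replicate 2 (0.117). Of the lymphatic genes outside the set, Adamts3 and Pdpn were called lower (log2 fold changes -1.06 and -0.81), Pdpn not without anterior replicate 2 (adjusted p = 0.0821), and Ccbe1 was not called.

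Transcription factors of endothelium and blood outside the set also held calls in both directions. Of 13 such genes, 4 were called higher in anterior cells and 2 lower, 6 were not called and Etv2 was not tested, with 6 and 24 counts in anterior and 2 and 0 in central libraries. The lower ones were Foxc2 and Ets1 (log2 fold changes -1.45 and -0.57, edgeR adjusted p = 0.0105 and 0.00119). The 6 not called had log2 fold changes between -0.36 and 0.16. The higher ones were Tal1, Lmo2, Lyl1 and Ets2 (log2 fold change of Ets2 0.39, edgeR adjusted p = 0.00201). Tal1, a regulator of blood and endothelial progenitors, measured 9.86 and 24.99 CPM in anterior and 0.88 and 0.62 CPM in central libraries (log2 fold change 4.54 ± 0.48 SE, adjusted p = 0.000263; 3.72 without anterior replicate 2). Lmo2, its cofactor, measured 65.5 and 79.6 CPM against 15.8 and 14.98 CPM (log2 fold change 2.23 ± 0.12 SE, adjusted p = 5.87e-06). Lyl1, the relative of Tal1, was called higher (log2 fold change 1.56 ± 0.45 SE, adjusted p = 0.0366), but not by limma-voom (adjusted p = 0.059) or without anterior replicate 2 (0.273) or central replicate 1 (0.0784).

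**Figure D4:**
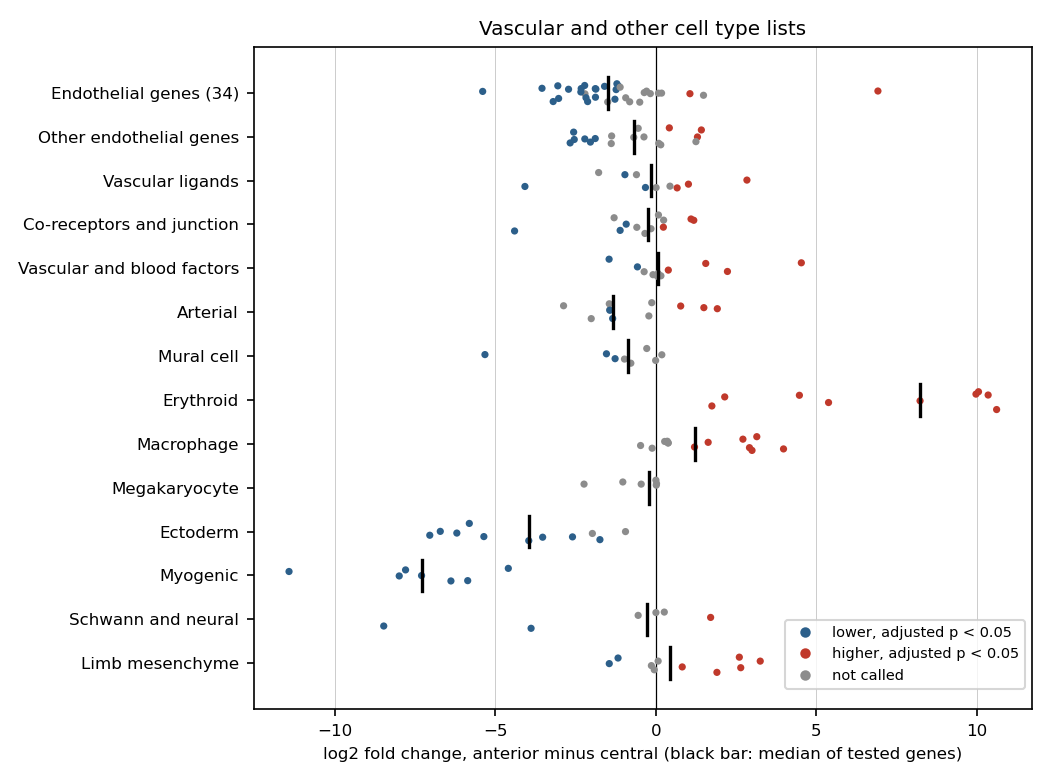
Log2 fold change, anterior minus central, of the tested genes of 14 fixed lists, with the median of each list as a black bar. The endothelial genes lie mostly left of 0, as do the ectoderm and myogenic lists, whereas the erythroid genes lie to the right and the macrophage genes mostly so. Values of genes with 0 counts in a population are fitted and do not bound their folds.

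Markers of other cell types also differed between the populations, some lists being mostly higher in anterior cells and others mostly lower. All 9 tested erythroid genes of 13 were called higher in anterior cells. Their summed level was 3302 and 8412 CPM in anterior and 8.86 and 12.3 CPM in central libraries, and 4 adult globin symbols were listed at 0 in every library. Whether these 0 values mean absent RNA was not tested. Of 14 macrophage genes, 7 were called higher (3 where a mean count of at least 50 was required), 6 were not called and 1 was not tested, with sums of 54.4 and 48.1 against 26.3 and 26.6 CPM. These included Mrc1 (8.99 and 11.9 against 1.36 and 1.24 CPM; log2 fold change 3.0 ± 0.26 SE, adjusted p = 9.56e-05) and C1qc (2.7 and 1.84 against 0.19 and 0.31 CPM; log2 fold change 3.15 ± 0.53 SE, adjusted p = 0.00331), whereas the pan-leukocyte gene Ptprc was not called (1.56 and 1.43 against 1.75 and 1.48 CPM, adjusted p = 0.871). Of 9 megakaryocyte genes, 6 were tested and 0 were called by edgeR (0 also at an unadjusted p under 0.05), DESeq2 or limma-voom. Without a filter or without central replicate 1, 2 were called lower, and without anterior replicate 2, 1 was. The list had sums of 6.54 and 8.35 against 8.22 and 10.3 CPM, and Gp6 and Treml1 were at 0 in both anterior libraries. Pf4, a platelet chemokine gene that macrophages also express, measured 1.08 and 1.09 against 1.43 and 1.54 CPM. The part of blood cell RNA in Lyve1, Vwf, Cd34 and Pecam1, which blood cells also express, was not tested.

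Of 11 ectoderm genes, 9 were called lower (3 with limma-voom) and 2 were not called, with sums of 11 and 10.9 CPM in anterior and 52.5 and 164.0 CPM in central libraries. All 7 myogenic genes were called lower, with sums of 4.17 and 2.35 against 142.9 and 142.2 CPM, and Pax7 and Myog were at 0 in both anterior libraries. Of 11 mural cell genes, which mark the pericytes and smooth muscle around vessels, 3 were called lower, 5 were not called and 3 were not tested. Cspg4, encoding the pericyte proteoglycan NG2, measured 11.7 and 11.2 against 30.3 and 24.7 CPM (log2 fold change -1.27 ± 0.14 SE, adjusted p = 0.000344), while the PDGF receptor gene Pdgfrb, which mesenchyme also expresses, measured 175 and 209.7 against 151 and 186 CPM and did not pass the test (adjusted p = 0.271). Pdgfrb was called higher without central replicate 2 (adjusted p = 0.00502). Kcnj8, a pericyte channel gene, was at 0 in every library. Of 8 Schwann and neural genes, 1 was called higher, 2 lower (1 with halved counts or a mean count of at least 50), 3 were not called and 2 were not tested, and Sox10 and Foxd3 were at 0 in both anterior libraries. The limb mesenchyme list held 5 genes called higher and 2 lower of 10. Msx1 was 9.56-fold and Lhx2 6.27-fold higher in anterior cells, and Pdgfra was 2.26-fold lower (edgeR adjusted p = 1.06e-06, 3.72e-06 and 2.39e-05). The part of these cell types in the endothelial differences was not tested.

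Within the anterior group, many endothelial genes were higher in replicate 2. Among the 31 genes with counts in both anterior libraries, the median ratio of replicate 2 to replicate 1 was 1.34, and 13 genes exceeded 1.5, among them Tie1 (4.02), Vwf (3.04), Cdh5 (2.89), Icam2 (2.56) and Pecam1 (2.45). Another 3 genes were more than 1.5 times as high in replicate 1, namely Erg, Prox1 and Arhgef15. Among all tested genes the median ratio was 1.001 and 4.92% exceeded 1.5. Their median central level was 25.4 CPM, which of the endothelial genes Fli1 alone exceeded in central cells. The 2 sets of ratios were therefore not taken at like levels, and counting error is larger at low counts. The summed erythroid level was also higher in anterior replicate 2, by 2.55 times. In the central group the median ratio was 1.08 over 33 endothelial genes, and 4 exceeded 1.5.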

How the data were processed

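Raw read counts per gene symbol, not normalized, were deposited by the authors for 4 libraries, and the submitters' processing notes name STAR 2.7.9a, HTSeq, DESeq2 and the mm10 build without giving roles. Strandedness and annotation are not given in the sources used here. The counts were fitted with edgeR 4.0.16 in R 4.3.3 (filterByExpr, TMM, quasi-likelihood F test, no covariate, 2 residual degrees of freedom, Benjamini-Hochberg over 14610 genes, threshold 0.05), and columns were matched to libraries by domain and number in the titles. DESeq2 1.42.0 and limma 3.58.1 (voom) were alternatives. The standard error is the absolute log2 fold change divided by the square root of F. Exon lengths and overlaps came from GENCODE M21 (GRCm38, the same build as mm10), in which 24366 of 25239 symbols were found. The members and lists were chosen with earlier results of these data known. All 34 members are accounted for. From the other lists, all tested ligands and up to 3 called genes with the largest change and a mean of at least 1 CPM could be named, plus some fixed markers. Ccbe1, Kcnj8, Angpt4, Gp6, Treml1, Pax7, Sox10, Foxd3, Ephb4 and Nrp1 were named after their values were seen. So were Foxc2, Ets1, Ets2, Bmx, Dll4, Gja4, Gja5, Hey2, Notch4, Tspan18, Stab1, Dysf and Pdgfra. The script was tested on simulated counts. Intervals and floors (3 counts per library) cover counting error only, since reads carry no molecular identifiers. Replicate pairs differed beyond sampling noise (chi-square per degree of freedom on halved counts 15.1 for anterior and 8.49 for central), so each library counts as 1 sample. The replicate numbers were not shown to pair the libraries.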

Additional observations from a re-analysis of the deposited data

How the results depend on the processing

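The 19 endothelial genes called lower were 17 with the DESeq2 Wald test, 18 with limma-voom, 20 without a filter, 13 with a mean count of at least 50, where fewer genes are tested, and 19 with DESeq2 size factors, library size alone, upper-quartile factors, halved counts, or the erythroid and macrophage genes removed. Leaving out 1 library, with the lone sample assumed to vary like the others, gave 14 to 17. A threshold of 0.01 and a test against a 1.5-fold change each gave 11. The 2 called higher became 1 with a mean count of at least 50, with halved counts, at 0.01 and against 1.5-fold, 3 without a filter, and 1 to 2 without 1 library. Lyve1 fell below the filter in the first 2 of these and was called in 0 of the 4 fits without 1 library, and without anterior replicate 1 the 2 were S1pr1 and Vwf. Over all genes 3351 were called, 1690 at 0.01, 1035 against 1.5-fold, and 2009 to 3697 without 1 library, with the lowest value without anterior replicate 2. The share of calls that were higher was 46.5% with TMM, 40.3% with library size alone and 39.1% with upper-quartile factors. Among the 33 tested members, 21 kept their direction and call under all 10 alternatives that left no library out. Another 7 (Flt1, Robo4, Lyve1, Sox7, Cldn5, Mmrn2 and Nos3) kept them under the 8 or 9 whose filter they passed. The exceptions were Erg, Sox17, Icam2, Emcn and Vwf. Among the named genes, signs changed for 3, all with values near 0. Tek ran from -0.0707 (without central replicate 1) to 0.2658 and Ptprc from -0.2263 to 0.0150 (without central replicate 1) as 1 library was left out. Vegfb became -0.0184 with library size alone, -0.0255 with upper-quartile factors, -0.0030 with a mean count of at least 50, and ran from -0.0559 to 0.0842 as 1 library was left out. The cause was not tested.

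With replicate number as a block, 20 members were called lower, the addition being Erg (adjusted p = 0.0171, edgeR), 2 higher, and 3586 genes in all. The labels do not say that equal numbers share embryos, and the replicate differences of the populations correlated across genes at 0.064. Members with counts near the floor have no firm fold: Cldn5, Esm1, Nos3, Sox17 and Lyve1 had at most 6 counts in either library of 1 population.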
